A study of Arabidopsis thaliana with 6 samples.

Results

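Rosette leaves of wild-type (WT) and ibm1-3 Arabidopsis thaliana kept in low light are compared here across the genes of the nuclear, chloroplast and mitochondrial genomes. The samples were chosen by their labels alone: 2 of the 6 RNA-seq samples of the study carry the low light label, 1 for WT and 1 for ibm1-3, both of the Columbia ecotype, 40 days old and grown in a long day greenhouse. The other 4 samples are 2 WT and 2 ibm1-3 samples of Columbia plants whose labels give an age of 30 days and 48 h of high light. The ibm1-3 plants carry a mutant allele of IBM1, and no other mutation is named for either group. The labels do not say how many plants went into a sample or what the light level was. With 1 library for each genotype there is no replicate and no test. Every difference below is between these 2 libraries, and plant, leaf, library and genotype cannot be told apart.

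IBM1 is a JmjC-domain enzyme that removes methyl groups from a silencing-associated lysine of histone H3 within transcribed genes. In plants that lack it, the DNA methyltransferase CMT3 methylates cytosines outside CG sites in the bodies of many genes, and leaf and flower development are abnormal. Leaves answer strong light by making anthocyanins, the purple flavonoid pigments, and by lowering transcripts of the light-harvesting antenna.

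The WT library held 15425082 reads over genes and the ibm1-3 library 13099267. The table lists 33602 genes, of which 10724 have no value and 4828 are listed at 0 in both libraries. The smallest value above 0 stands for 15 reads. A listed 0 is not read as absence, because 49 genes at 5 FPKM (fragments scaled by gene length and depth) or more in all 4 high light libraries are listed at 0 in both low light libraries. Ratios were computed for the 16509 genes holding 50 or more reads in sum, scaled by trimmed mean of M-values (TMM), and are given as log2 of ibm1-3 over WT. The range in parentheses after a ratio is the exact 95% interval of the counting error and covers nothing else.

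IBM1 (AT3G07610, chromosome 3, 2426069 to 2432913, forward strand, TAIR10) had 643 reads in WT and 399 in ibm1-3 (log2 ratio -0.71, -0.90 to -0.53). Transcript of the gene was thus listed in both libraries and lower in the one labelled ibm1-3. The table gives 1 value for the whole gene and does not show which part of the transcript was read. In high light, IBM1 was at 13.8 FPKM in WT and 17.6 in ibm1-3 in pair 1, and at 8.34 and 7.46 FPKM in pair 2, so the genotypes overlapped. In bulk leaf RNA, here and below, fewer cells of a type and less RNA per cell cannot be told apart.

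Most genes were close to equal in the 2 libraries. Of the 16509 genes, 11362 (68.8%) were within 1.5-fold, the median log2 ratio was 0.01, and the 5th and 95th percentiles were -1.50 and 1.07. In ibm1-3, 937 genes (5.68%) were at least 2-fold higher and 1608 (9.74%) at least 2-fold lower. The 937 include 84 genes listed at 0 in WT, and the 1608 include 87 listed at 0 in ibm1-3. Such a gene was set at 14 reads in that library, so with the 50-read minimum its direction was fixed in advance. Without these genes, 853 of 16338 were higher and 1521 lower. The counting interval lay wholly past 2-fold for 430 of the higher and 1047 of the lower genes. At least 4-fold differences were seen for 209 higher and 403 lower genes, and at least 16-fold differences for 21 and 25. The balance depends on the scaling. With library totals in place of TMM every log2 ratio is 0.26 higher, the median of all genes is 0.27, and 1582 genes are at least 2-fold higher against 1149 lower, so that 57.9% of the genes past 2-fold are higher where TMM gives 36.8%. Values below use TMM, and counts of list members stand beside 5.68% higher and 9.74% lower over all genes.

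Genes with many reads were more often lower in ibm1-3. Of the 125 genes with more than 20000 reads over both libraries, 37.6% were at least 2-fold lower and 3.20% at least 2-fold higher, with a median of -0.61. Among the 3255 genes with 50 to 200 reads, 13.0% were lower and 12% higher, with a median of 0.07. Short genes also lay lower, with a median of -0.27 for the 131 genes of up to 500 bases against 0.10 for the 582 genes longer than 4000 bases.

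**Figure D1:**
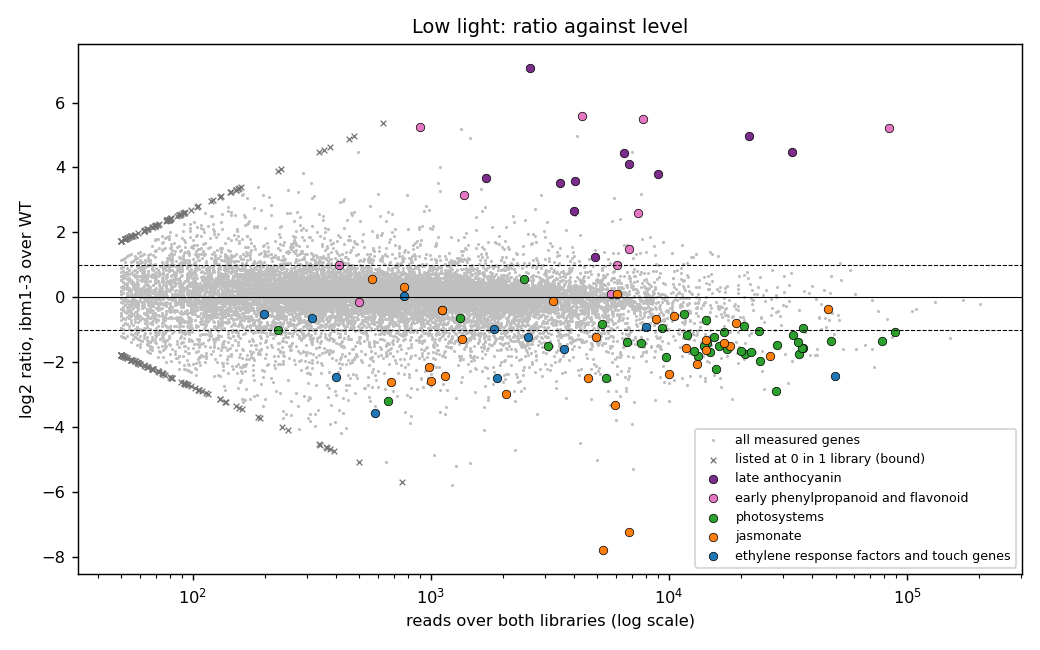
Log2 ratio of ibm1-3 over WT in low light (vertical axis, TMM-scaled reads) against total reads over both libraries (horizontal log axis), 1 grey point per measured gene, crosses for genes listed at 0 in 1 library, members of 5 lists in colour and dashed lines at 2-fold. Most genes form a band around 0, flavonoid genes stand high above it up to 7.06, and photosystem genes lie to the right below it.

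**Figure D2:**
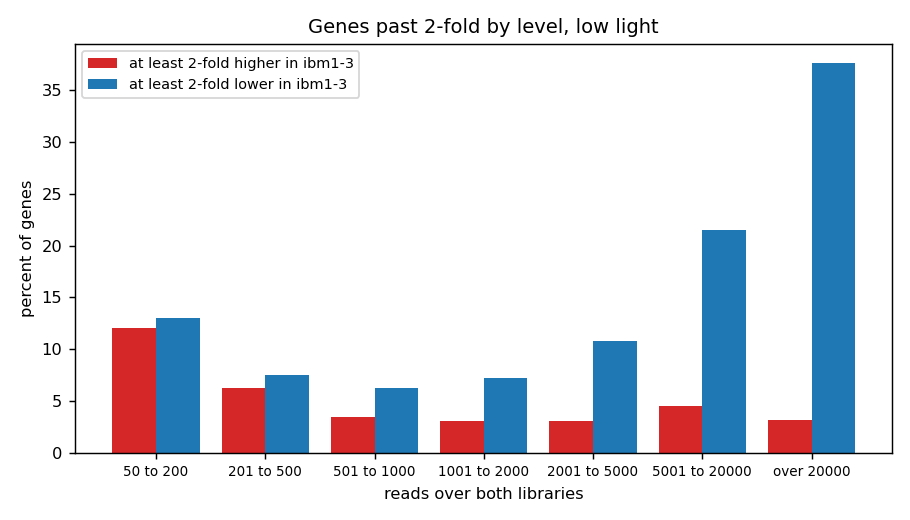
Percent of genes at least 2-fold higher or lower in ibm1-3 (vertical axis) in classes of total reads over both libraries (horizontal axis). The lower share is 13.0% in the class with the fewest reads and 37.6% above 20000 reads, while the higher share goes from 12% to 3.20%.

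The largest differences in the higher direction were flavonoid genes, and those in the lower direction were defensin genes. The upstream sequences of TT4 and DFR are shown because these genes had the most reads among named flavonoid genes holding a G-box (CACGTG). Both also gained the most in RPM (reads relative to the scaled library size). PDF1.2 is shown because it had the most reads among named jasmonate genes holding a GCC-box (GCCGCC). PDF1.2c, with the lowest ratio, held no GCC-box in its upstream 250 bases. Holding a motif was thus a condition for showing a sequence. Each is the 250 bases before the RefSeq gene start in build TAIR10.1, written 5′ to 3′ on the gene's strand: chr5:4488226-4488475 for TT4 (forward strand), chr5:17166033-17166282 for DFR (reverse strand) and chr5:17907639-17907888 for PDF1.2 (reverse strand). Capitals mark a G-box (CACGTG) in TT4 and DFR and a GCC-box (GCCGCC) in PDF1.2.
TT4: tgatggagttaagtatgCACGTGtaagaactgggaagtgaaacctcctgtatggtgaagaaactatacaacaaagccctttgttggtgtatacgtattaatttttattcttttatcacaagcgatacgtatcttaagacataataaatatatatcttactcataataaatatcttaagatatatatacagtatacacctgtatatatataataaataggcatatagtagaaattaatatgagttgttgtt
DFR: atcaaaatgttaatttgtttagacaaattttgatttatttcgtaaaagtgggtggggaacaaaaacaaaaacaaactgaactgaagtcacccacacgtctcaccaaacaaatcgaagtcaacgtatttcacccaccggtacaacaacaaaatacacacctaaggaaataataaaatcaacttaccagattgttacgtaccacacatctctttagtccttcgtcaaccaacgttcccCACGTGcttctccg
PDF1.2: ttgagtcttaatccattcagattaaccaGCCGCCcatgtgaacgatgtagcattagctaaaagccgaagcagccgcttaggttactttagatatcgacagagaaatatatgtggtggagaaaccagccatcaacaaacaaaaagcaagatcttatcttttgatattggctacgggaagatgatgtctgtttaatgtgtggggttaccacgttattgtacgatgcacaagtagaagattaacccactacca

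TT4, chalcone synthase and the entry step of flavonoid synthesis (chromosome 5, 4488476 to 4490264, forward strand, TAIR10), had 2178 reads in WT and 81684 in ibm1-3 (log2 ratio 5.20, 5.14 to 5.27). Its gain was the largest of all genes, from 155 to 5696 RPM, and per length it was the third most abundant transcript of the ibm1-3 library at 3344 RPKM (reads scaled by gene length and depth). DFR, dihydroflavonol reductase (chromosome 5, 17164093 to 17166032, reverse strand), had 1385 and 31515 reads (log2 ratio 4.48, 4.40 to 4.56). LDOX, leucoanthocyanidin dioxygenase (chromosome 4, 12004768 to 12006209, reverse strand), had 658 and 20978 reads (log2 ratio 4.97, 4.86 to 5.08). The 3 enzymes stand at the start and the end of the route to anthocyanidins, and each had WT reads far above the listing limit of 15.

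5MAT, which adds a malonyl group to anthocyanins, had the highest ratio of all genes listed above 0 in both libraries, with 18 reads in WT and 2582 in ibm1-3 (log2 ratio 7.06, 6.48 to 7.90). CHIL, a chalcone isomerase-like protein, had 86 and 4212 reads (5.57, 5.28 to 5.91). TT7, flavonoid 3'-hydroxylase, had 164 and 7622 reads (5.50, 5.29 to 5.74). These rank highest, and 4CL3, the coenzyme A ligase of the flavonoid branch, followed with 22 and 879 reads (5.23, 4.69 to 5.98). TT8, a bHLH regulator of the pathway, had 45 and 1414 reads (4.92, 4.52 to 5.41).

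The rest of the 12 highest are not annotated as flavonoid genes. AT2G44240, a NEP-interacting protein, had 34 reads in WT and 1303 in ibm1-3 (log2 ratio 5.19). The non-coding RNA gene AT1G67105 had 124 and 3964 reads (4.96), and NUDT24, a nudix hydrolase, had 295 and 6698 (4.47). MGD3, which makes galactolipids when phosphate is short, had 20 and 472 reads (4.47). Beside these, 84 of the measured genes are listed at 0 in WT, and the most abundant of them in ibm1-3 were DXPS1 with 628 reads, the non-coding AT2G01422 with 477 and AT1G09500 with 451.

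**Figure D3:**
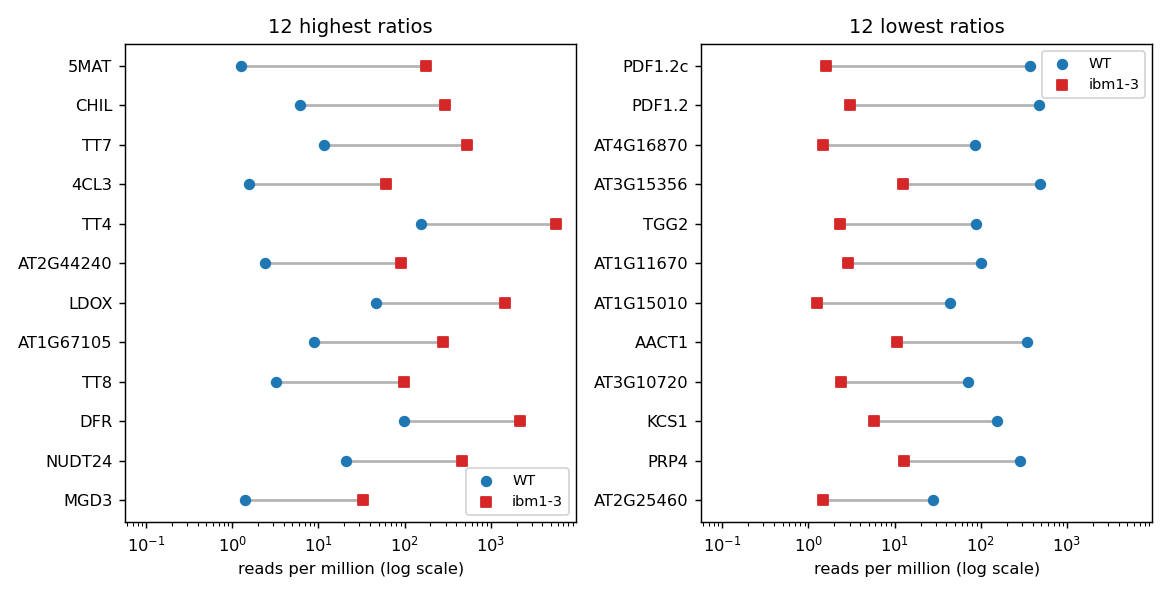
Level in RPM (horizontal log axis) in WT (blue circles) and ibm1-3 (red squares) for the 12 highest and the 12 lowest ratios among genes with 100 reads or more that are listed above 0 in both libraries. Log2 ratios run from 4.47 to 7.06 in the left panel and from -7.79 to -4.20 in the right one.

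Each of the 11 measured genes of late anthocyanin synthesis was higher by 2-fold or more, with a median log2 ratio of 3.80 against 0.01 over all genes; their summed level was 423 RPM in WT and 6381 in ibm1-3. UF3GT, the xylosyltransferase that decorates anthocyanins, had 276 reads in WT and 6194 in ibm1-3 (4.46). UGT78D2, the 3-O-glucosyltransferase, had 367 and 6437 (4.10), and GSTF12, which carries anthocyanins to the vacuole, had 592 and 8390 (3.80). The acyltransferase SCPL10 had 120 and 1574 reads (3.68), and the 5-O-glucosyltransferase AT4G14090 had 274 and 3223 (3.53). The lowest of the 11 was BGLU10, an anthocyanin glucosyltransferase of the glycosyl hydrolase kind, with 1431 and 3468 reads (1.25, 1.16 to 1.34).

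Of the 12 measured early phenylpropanoid and flavonoid genes, 7 were at least 2-fold higher and none lower, with a median of 2.05. PAL1, phenylalanine ammonia-lyase at the head of the pathway, had 1031 reads in WT and 6400 in ibm1-3 (2.61), and C4H, the next enzyme, had 1740 and 5015 (1.50). TT5, chalcone isomerase, had 136 and 1238 (3.15). Not every step took part. The general ligase 4CL1 had 2724 and 2971 reads (0.10, 0.02 to 0.18), and the flavonol rhamnosyltransferase UGT78D1 had 625 and 487 (-0.38, -0.56 to -0.21). F3H is listed at 0 in both libraries and FLS1, flavonol synthase, at 19 reads in WT and 0 in ibm1-3, so neither has a ratio.

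The regulators of the pathway split by direction. Of 11 measured, 5 were at least 2-fold higher and 2 lower, one of which, LBD38, has 57 reads in WT and is listed at 0 in ibm1-3. The MYB activators MYB90 (PAP2), with 960 and 5243 reads (2.42, 2.32 to 2.52), and MYB75 (PAP1), with 704 and 3000 (2.06, 1.95 to 2.19), were higher, as was MYBL2, a repressor of the same complex, with 641 and 1661 (1.35). LBD37, a nitrogen-responsive repressor of anthocyanin genes, was lower, with 2517 and 551 reads (-2.22, -2.35 to -2.08). TTG1, the WD-repeat partner of the MYB and bHLH proteins, had 976 and 591 (-0.75).

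The largest differences in the lower direction were in plant defensins. PDF1.2c (chromosome 5, 17908850 to 17909507, reverse strand) had 5227 reads in WT and 23 in ibm1-3 (log2 ratio -7.79, -8.51 to -7.27). PDF1.2 (chromosome 5, 17906968 to 17907638, reverse strand) had 6734 and 44 reads (log2 ratio -7.25, -7.75 to -6.86). PDF1.2b had 757 reads in WT and PDF1.3 had 130, and both are listed at 0 in ibm1-3. The 4 genes, which encode small antifungal proteins, summed to 12848 reads in WT and 67 in ibm1-3. PDF1.2, PDF1.2b and PDF1.2c are 93.4 to 94.2% identical over 243 coding bases, so the division of reads among them is uncertain, and sharing with other defensin genes was not examined.

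The other lowest genes had varied annotations. AT4G16870 had 1203 reads in WT and 21 in ibm1-3 (-5.80), and the legume lectin AT3G15356 had 6862 and 178 (-5.29). TGG2, a myrosinase that cleaves glucosinolates, had 1236 and 33 (-5.21), while its relative TGG1 had 809 and 594 (-0.47). The MATE efflux protein AT1G11670 had 1421 and 41 reads (-5.11), and AACT1, an aromatic acyltransferase, had 4815 and 151 (-5.01). Genes of the leaf surface and wall were among them. KCS1, a fatty acid elongase of wax synthesis, had 2169 and 83 reads (-4.72), the proline-rich wall protein PRP4 had 4030 and 183 (-4.48), and AT3G10720, of the pectin methylesterase kind, had 998 and 34 (-4.86). Among the 87 measured genes listed at 0 in ibm1-3, the most abundant in WT after PDF1.2b were AT1G29670, a lipase-like gene with 499 reads, and the ERF-type regulators TDR1 with 393 and DDF1 with 376.

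The genes with the largest losses in RPM had varied annotations. PEN3, a plasma membrane transporter of pathogen defence (chromosome 1, 22034423 to 22040126, forward strand), went from 7482 in WT to 3162 in ibm1-3, with 105410 and 45344 reads (log2 ratio -1.24). The annotated pseudogene AT1G79245 went from 4198 to 947 (-2.15), and the drought- and light-responsive ERD15 from 3786 to 1256 (-1.59). The most abundant transcript per length was MT3, a metallothionein, in both libraries, at 8331 RPKM in WT and 7570 in ibm1-3.

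Jasmonate genes, whose hormone controls wound responses and defence against insects and fungi, lay lower as a list. Of 30 measured, 21 were at least 2-fold lower and none higher, with a median of -1.59. Leaving out genes listed at 0, 19 of 28 were lower, with a median of -1.54. The summed level of the list was 12892 RPM in WT and 5268 in ibm1-3. In hormone synthesis, 6 of 10 genes were at least 2-fold lower. AOC3, an allene oxide cyclase, had 5368 reads in WT and 540 in ibm1-3 (-3.34, -3.47 to -3.21), and OPR3, the reductase of the next step, had 20701 and 5941 (-1.83). The lipoxygenases LOX4, with 8343 and 1659 (-2.36), and LOX3, with 10579 and 2569 (-2.07), were lower, whereas LOX2 had 25840 and 20514 (-0.36). Of 10 JAZ repressors, which the hormone both removes and induces, 8 were at least 2-fold lower. JAZ5 had 3883 and 699 reads (-2.50), JAZ8 had 585 and 97 (-2.61), and JAZ10 had 959 and 181 (-2.42), while JAZ12 had 2891 and 3128 (0.09). The catabolic enzyme CYP94C1, which oxidises the active hormone, had 1836 and 237 (-2.97). VSP2, a storage protein often used as a marker of the MYC branch, had 225 and 340 (0.57).

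Genes of ethylene response and touch showed a like direction. Of 11 measured, 6 were at least 2-fold lower and none higher, with a median of -1.24, and their summed level was 3955 RPM in WT and 976 in ibm1-3. CML12 (TCH3), a calmodulin-like protein, had 41649 reads in WT and 7912 in ibm1-3 (-2.42, -2.46 to -2.39). XTH22 (TCH4), a xyloglucan-modifying wall enzyme, had 534 and 45 (-3.57), and CML38 had 1600 and 292 (-2.48). The regulator ERF6 had 338 and 62 reads (-2.45), but ERF104 had 376 and 396 (0.05).

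Upstream sequences of 3 lower genes are shown because they hold CGCGTT, the core of the rapid stress response element, which was the motif whose share differed most between lower and higher genes by ratio. Among 16399 genes with a 250-base upstream window, 2.85% held it on either strand. It was in 6.27% of the 1578 lower genes and 1.82% of the 935 higher genes. The W-box (TTGACC or TTGACT), bound by WRKY proteins, was in 28.6% of all windows, 37.3% of lower and 29.6% of higher genes. The windows are chr2:17268908-17269157 for ERD15 (forward strand), chr1:5170931-5171180 for AT1G15010 (forward strand), a gene with 627 reads in WT and 18 in ibm1-3 (-5.07), and chr2:10835661-10835910 for AT2G25460 (reverse strand), with 396 and 21 (-4.20). Capitals mark AACGCG, the same motif on the other strand.
ERD15: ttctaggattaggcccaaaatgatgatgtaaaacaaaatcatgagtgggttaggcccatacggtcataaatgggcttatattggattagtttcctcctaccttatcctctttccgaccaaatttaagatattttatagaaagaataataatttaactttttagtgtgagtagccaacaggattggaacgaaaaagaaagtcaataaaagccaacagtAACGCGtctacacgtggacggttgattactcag
AT1G15010: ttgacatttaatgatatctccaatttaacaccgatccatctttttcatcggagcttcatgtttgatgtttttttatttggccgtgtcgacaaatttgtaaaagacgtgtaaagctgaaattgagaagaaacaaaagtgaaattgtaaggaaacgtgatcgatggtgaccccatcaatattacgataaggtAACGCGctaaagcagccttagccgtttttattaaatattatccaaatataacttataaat
AT2G25460: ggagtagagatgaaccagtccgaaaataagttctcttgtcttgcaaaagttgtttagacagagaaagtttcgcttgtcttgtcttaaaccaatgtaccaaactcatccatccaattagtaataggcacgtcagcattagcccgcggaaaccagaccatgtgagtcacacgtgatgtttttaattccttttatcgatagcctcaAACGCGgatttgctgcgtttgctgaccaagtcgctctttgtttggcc

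The G-box (CACGTG) was in 7.59% of all windows, 7.59% of higher and 8.94% of lower genes. It was in 5 of the 23 windows of early and late flavonoid genes (21.7%) and in 8 of the 41 of photosystem genes (19.5%), lists that lay in opposite directions. The GCC-box (GCCGCC), bound by ERF proteins, was in 2.07% of all windows, 2.73% of lower genes, 1.18% of higher genes and 3 of 30 jasmonate genes. The evening element (AAATATCT), bound by clock proteins, was in 4.94% of all windows, 7.06% of higher genes and 5.45% of lower genes. The I-box (GATAAG) was in 12.4% of all windows, 14.6% of lower genes and 12.5% of higher genes. The AC element (ACCTACC) of phenylpropanoid genes was in 1.19% of all, 1.71% of higher and 1.01% of lower genes. No motif searched contains another, and a match describes the window and is not a binding site.

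**Figure D4:**
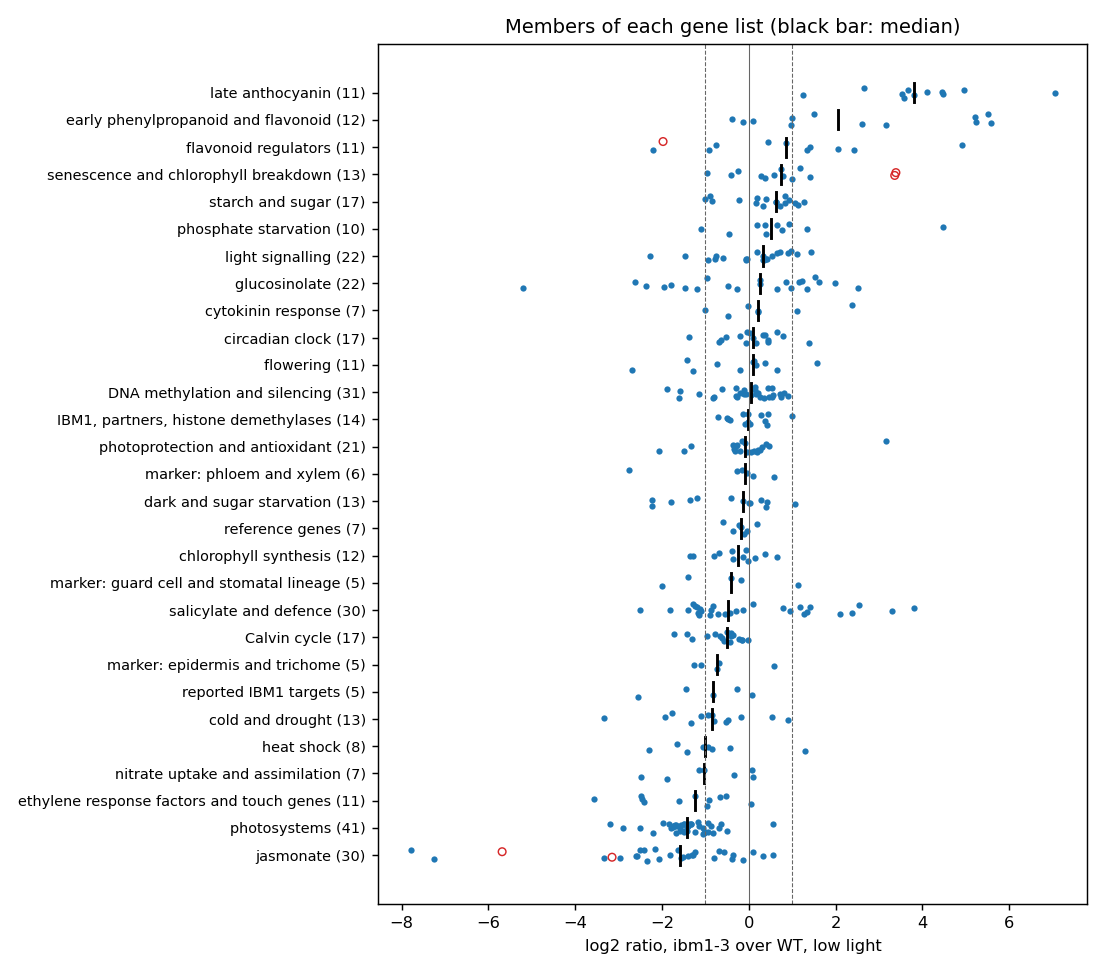
Log2 ratio of ibm1-3 over WT in low light (horizontal axis) for every measured member of the gene lists (rows), 1 point per gene, with the list median as a black bar, the number of measured members in parentheses and dashed lines at 2-fold. Open red circles are genes listed at 0 in 1 library, drawn at the ratio that 14 reads would give; the 11 late anthocyanin genes lie right of the upper line and 33 of 41 photosystem genes left of the lower one.

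Photosystem genes, encoding the antenna and reaction centre proteins of photosynthesis, were lower in ibm1-3. Of 41 measured, 33 were at least 2-fold lower and none higher, and the median was -1.42; under library totals 26 were lower with a median of -1.16. Their summed level was 43740 RPM in WT and 16674 in ibm1-3. The photosystem II antenna genes had 13 of 14 at least 2-fold lower and a median of -1.61, the photosystem I antenna genes 4 of 4 with a median of -1.53, photosystem I subunits 10 of 12 with a median of -1.44, and photosystem II subunits 5 of 9 with a median of -1.03. LHCB1.3 had 24631 reads in WT and 3367 in ibm1-3 (-2.90, -2.95 to -2.84), and LHCB2.3 had 592 and 65 (-3.19, -3.61 to -2.84). PSBR, a stabilising subunit of photosystem II, had 59618 and 29030 (-1.06). LHCB4.3, an antenna protein of high light, was the 1 member above 0, with 986 and 1471 reads (0.55, 0.43 to 0.67). LHCB1.1, LHCB1.2 and LHCB1.3 are 95.7 to 96.4% identical over 804 coding bases and sit side by side on chromosome 1, so their shares are uncertain.

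The Calvin cycle, which fixes carbon dioxide, differed less. Of 17 measured genes, 3 were at least 2-fold lower and none higher, with a median of -0.50, and all 17 lay below 0 with TMM against 13 under library totals. The 3 are small subunits of Rubisco: RBCS1A, with 55176 reads in WT and 22770 in ibm1-3 (-1.30), RBCS3B, with 12868 and 4860 (-1.43), and RBCS2B, with 4404 and 1366 (-1.71). RBCS1B, which is 97.3% identical to RBCS2B over 546 coding bases and shares its reads uncertainly, had 3285 and 1962 (-0.77). The activase RCA had 107440 and 93812 reads (-0.22), which is above 0 under library totals, and transketolase TKL1 had 8521 and 8499 (-0.03).

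Chlorophyll synthesis genes had 2 of 12 at least 2-fold lower (16.7%, against 9.74% of all genes) and none higher. The median was -0.25, which is 0.01 under library totals. HEMA1, the first enzyme of tetrapyrrole synthesis, had 1643 reads in WT and 685 in ibm1-3 (-1.29). PORB, a protochlorophyllide reductase, had 169 and 67 (-1.35), but its gene overlaps AT4G27450, with 854 and 339 reads, so without the strand of the counting its value is uncertain. Of 67 measured chloroplast-encoded genes, 30 were at least 2-fold lower and none higher, with a median of -0.86, and under library totals 16 were lower. Their reads were 37132 in WT (0.241% of the library) and 19865 in ibm1-3 (0.152%). Organelle transcripts mostly lack the poly(A) tail, and how RNA was selected is not given in the sources used here.

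Photoprotection and antioxidant genes had 1 of 21 at least 2-fold higher (4.76%) and 3 lower (14.3%), against 5.68% and 9.74% of all genes. These counts are close to the shares of all genes. The median was -0.08, which is 0.18 under library totals. ELIP1, an early light-induced protein that binds chlorophyll under stress, had 285 reads in WT and 2600 in ibm1-3 (3.16, 2.99 to 3.35). The copper superoxide dismutases CSD2, with 2432 and 589 (-2.07), and CSD1, with 5017 and 2039 (-1.32), were lower. FSD1, the iron form that replaces them when copper is short, had 9326 and 12496 (0.40). Catalases differed little, with CAT2 at 18343 and 20335 reads (0.12) and CAT3 at 87809 and 84346 (-0.08), a value above 0 under library totals.

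Light signalling genes were mostly within 2-fold. Of 22, 2 were higher and 2 lower (9.09% each, against 5.68% and 9.74% of all genes), with a median of 0.32. Under library totals 4 were higher. The B-box regulator BBX32 had 497 reads in WT and 103 in ibm1-3 (-2.29), and BBX21, a positive regulator of light responses, had 151 and 420 (1.44). HY5, the bZIP factor at the centre of this pathway, had 81 and 111 (0.42, 0.00 to 0.86). The clock had 1 of 17 higher, 2 under library totals, and 1 lower (5.88% each), with a median of 0.10. For both lists the counts are close to the shares of all genes. The morning genes CCA1, with 2032 and 2021 reads (-0.03), and LHY, with 2612 and 2720 (0.03), were near equal in these libraries. TOC1, an evening repressor, had 639 and 250 (-1.38, -1.60 to -1.17), and ELF4 had 47 and 127 (1.39).

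Among genes linked to IBM1 function, 1 list lay within 2-fold, and a few DNA methylation genes were lower. IBM1 with its RNA processing partners and other histone demethylases had 0 of 14 genes past 2-fold and a median of -0.02, which is 0.24 under library totals. EDM2, needed for the full-length IBM1 transcript, had 905 reads in WT and 914 in ibm1-3 (-0.01), and IBM2, with the same role, had 31 and 22 (-0.50, -1.38 to 0.31). The highest was LDL1, a demethylase of another lysine, with 72 and 146 (0.98). Of 31 DNA methylation genes, 4 (12.9%) were at least 2-fold lower and none higher, with a median of 0.04. The lower share was 9.74% over all genes and 13.0% in the class with the fewest reads, which holds CMT3, VIM1 and NRPE1. The count is thus close to the share of genes with similar reads. Under library totals 3 of the 31 were higher, and with at least 200 reads 1 of 21 was lower. CMT3, the methyltransferase that acts against IBM1, had 96 and 32 reads (-1.58, -2.24 to -1.02), and ROS1, a DNA glycosylase that removes methylation, had 508 and 234 (-1.14). VIM1 had 68 and 18 (-1.89), NRPE1 had 106 and 35 (-1.60), and MET1, which keeps CG methylation, had 99 and 57 (-0.81, -1.32 to -0.34).

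Of the genes that earlier work on ibm1 mutants reported as affected, 5 were measured. ER, the ERECTA receptor kinase of organ shape and stomatal spacing (chromosome 2, 11208080 to 11214662, reverse strand), had 214 reads in WT and 36 in ibm1-3 (log2 ratio -2.56, -3.15 to -2.08). Its relative ERL2 had 58 and 21 (-1.45), and ERL1 is listed at 0 in both. BNS (BONSAI) had 106 and 113 (0.07, -0.33 to 0.46). DCL3, a Dicer of small RNA silencing, had 101 and 58 (-0.82), and RDR2, the RNA polymerase before it, had 36 and 30 (-0.28, -1.04 to 0.45). Thus 2 of the 5 measured were at least 2-fold lower, against 9.74% of all genes, and each rests on few reads.

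Salicylate genes, of the hormone of defence against biotrophic pathogens, went both ways, with 9 of 30 at least 2-fold higher, 10 lower and a median of -0.49; under library totals 11 were higher and 4 lower. PR1, the secreted marker protein, had 390 reads in WT and 2083 in ibm1-3 (2.39, 2.23 to 2.55), and WRKY38 had 18 and 271 (3.81). NIMIN1, an inhibitor of the receptor NPR1, had 30 and 183 (2.54). The signalling hub genes lay on the other side. EDS1 had 2410 and 1105 (-1.15), PAD4 had 2081 and 922 (-1.20), and CBP60G, an activator of salicylate synthesis, had 5931 and 1722 (-1.81). ICS1, the synthesis enzyme, had 1514 and 1060 (-0.54). WRKY40, an early-induced regulator, had 5680 and 1015 (-2.51), and PR2 and PR5 were within 2-fold at -0.29 and -0.71.

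The glucosinolate list, of the mustard oil precursors, had 7 of 22 genes at least 2-fold higher and 7 lower, and the directions followed the chemical branch, a division made after the values were seen. All 6 measured indolic genes were at least 2-fold lower, from 39028 to 11734 reads in sum. MYB51, their regulator, had 1902 reads in WT and 373 in ibm1-3 (-2.37), and MYB34 had 186 and 30 (-2.62). CYP83B1, an oxime-metabolising P450 of this branch, had 30108 and 8872 (-1.79), which is most of the reads in the sum. Of 12 aliphatic genes 7 were at least 2-fold higher and none lower, with a median of 1.18, from 20288 to 46145 reads in sum. MAM3, a chain-elongation synthase, had 585 and 3439 (2.53), CYP79F1, the entry P450, had 2761 and 8596 (1.61), and BCAT4 had 1721 and 5015 (1.52). The regulator MYB28 had 598 and 727 (0.26), so the enzymes differed more than it did.

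The nitrate list, for uptake and reduction of nitrogen, had 4 of 7 genes at least 2-fold lower and a median of -1.03, against 2 lower under library totals. NIA2, the main nitrate reductase (chromosome 1, 14158452 to 14161938, forward strand), had 13862 reads in WT and 2509 in ibm1-3 (-2.49), and NIR1, nitrite reductase, had 1173 and 325 (-1.87). The later enzymes were near equal, with GLU1, glutamate synthase, at 11274 and 12224 (0.09) and GLN2, glutamine synthetase, at 8849 and 7158 (-0.33). Phosphate starvation genes had 2 of 10 higher (20%) and 1 lower (10%), against 5.68% and 9.74% of all genes. Their median was 0.52, and under library totals 4 were higher and none lower.

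Starch genes had 3 of 17 at least 2-fold higher (17.6%) and 1 lower (5.88%), against 5.68% and 9.74% of all genes. Their median was 0.63, and under library totals 6 were higher and none lower. GPT2, the glucose-phosphate importer of the chloroplast, had 975 reads in WT and 2406 in ibm1-3 (1.28), GBSS1, which makes amylose, had 5599 and 9369 (0.72), and SEX1, which opens starch for breakdown, had 1497 and 2900 (0.93). Senescence and chlorophyll breakdown genes had 4 of 13 higher, none lower and a median of 0.75, and 7 were higher under library totals. Of the 4, SAG12 and SWEET15 are listed at 0 in WT and were counted only through their ibm1-3 reads; without them 2 of 11 were higher, with a median of 0.59. The summed level of the list was 4088 RPM in WT and 3964 in ibm1-3. SAG12, the cysteine protease that marks senescent leaves, is listed at 0 in WT and had 156 reads in ibm1-3, and SWEET15 is listed at 0 and had 159. NAC092 (ORE1), a senescence regulator, had 1398 and 3214 (1.17, 1.08 to 1.27), and NYE2, a chlorophyll-degrading protein, had 358 and 973 (1.41).

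Dark and sugar starvation genes had 5 of 13 at least 2-fold lower, 1 higher and a median of -0.12, which is 0.14 under library totals. BXL1, a wall xylosidase, had 3394 reads in WT and 731 in ibm1-3 (-2.24), and SEN1 had 503 and 146 (-1.80). Heat shock genes had 4 of 8 lower and 1 higher; HSFA2, the inducible heat factor, had 1529 and 317 (-2.29), and HSP101, a disaggregating chaperone, had 1105 and 355 (-1.66). Cold and drought genes had 5 of 13 lower and none higher, with a median of -0.84. CYP707A3, which breaks down abscisic acid, had 528 and 52 (-3.34), and the zinc finger regulator ZAT10 had 2981 and 799 (-1.92).

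In the flowering list 1 of 11 genes was at least 2-fold higher (9.09%) and 3 were lower (27.3%), against 5.68% and 9.74% of all genes. The median was 0.09. SPL5, a factor of the adult phase, had 317 reads in WT and 49 in ibm1-3 (-2.69), and SPL4 had 858 and 325 (-1.42). TSF, a relative of the florigen gene FT, had 74 and 227 (1.58), and FT had 122 and 162 (0.38, 0.04 to 0.73). Among 7 cytokinin response genes, 2 were higher (28.6%) and 1 lower (14.3%), led by ARR16 with 70 and 372 (2.37). The lower one, ARR7 with 205 and 103 (-1.01), was within 2-fold under library totals.

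Housekeeping genes used as references were within 2-fold, 7 of 7, with a median of -0.18, which is 0.08 under library totals. ACT2, an actin, had 12220 reads in WT and 8232 in ibm1-3 (-0.60), and AT4G34270 had 529 and 610 (0.18). Of 307 genes annotated as ribosomal proteins, 1 was at least 2-fold higher and 1 lower, with a median of -0.16; under library totals 6 were higher and the median is 0.10.

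Markers of leaf cell types also differed, and their part in the results above was not tested. The 3 mesophyll markers, LHCB1.1, RBCS1A and RCA, all belong to the photosystem or Calvin cycle lists above and summed to 12459 RPM in WT and 8326 in ibm1-3. Of 9 epidermis and trichome markers 5 were measured, 2 of them at least 2-fold lower, none under library totals, with sums of 681 and 372; CER1 is listed at 0 in both libraries, and ETC1 and TRY in ibm1-3. Of 10 guard cell and stomatal markers 5 were measured, 1 higher and 2 lower, with sums of 83.2 and 70.9; EPF2 and MUTE are listed at 0 in both. Of 9 phloem and xylem markers 6 were measured, with sums of 836 and 758, and XCP2, a xylem protease, had 118 reads in WT and 17 in ibm1-3 (-2.75). Root markers summed to 2.20 and 11.6 and flower markers to 2.77 and 6.90. Of these, BGLU23 (root, 86 reads in ibm1-3) and SEP3 (flower, 79 reads in ibm1-3) are listed at 0 in WT. Both were measured only through their ibm1-3 reads. The other measured root marker, PHT1;4, had 31 and 81 reads and also belongs to the phosphate list. With at least 20 reads, 1 of 3 flower markers was at least 2-fold higher and 1 lower. AP3 and PI are listed at 0 in both libraries. No seed or meristem marker was measured.

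The high light samples give the same genotypes in another setting, as FPKM with a pseudocount of 1 and 1 pair of libraries at a time. No replicate number stands in the column names of pair 1, and the labels of 2 high light samples name a table of the other replicate number than their titles do, so which sample lies behind a high light column is uncertain within a genotype. Light, plant age, library protocol and table processing cannot be told apart between the 2 settings, and the difference between them was not tested. Over the 15786 genes measured in both, the low light comparison had 832 higher and 1509 lower genes. In high light 2528 genes (16.0%) were at least 2-fold higher and 1289 (8.17%) at least 2-fold lower in both pairs, with medians over all genes of 0.22 and 0.27. Higher in all 3 comparisons were 228 genes, 27.4% of those higher in low light and 9.02% of those higher in high light. Lower in all 3 were 171 genes, 11.3% and 13.3% of the respective lists. A larger number, 662 genes, was lower in low light and higher in high light, which is 43.9% of the low light lower genes and 26.2% of the high light higher genes. The reverse, higher in low and lower in high light, was seen for 89 genes (10.7% and 6.90%). Across genes, which are not independent and share libraries, Pearson's r of low light with pair 1 and pair 2 was -0.07 and -0.08.

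**Figure D5:**
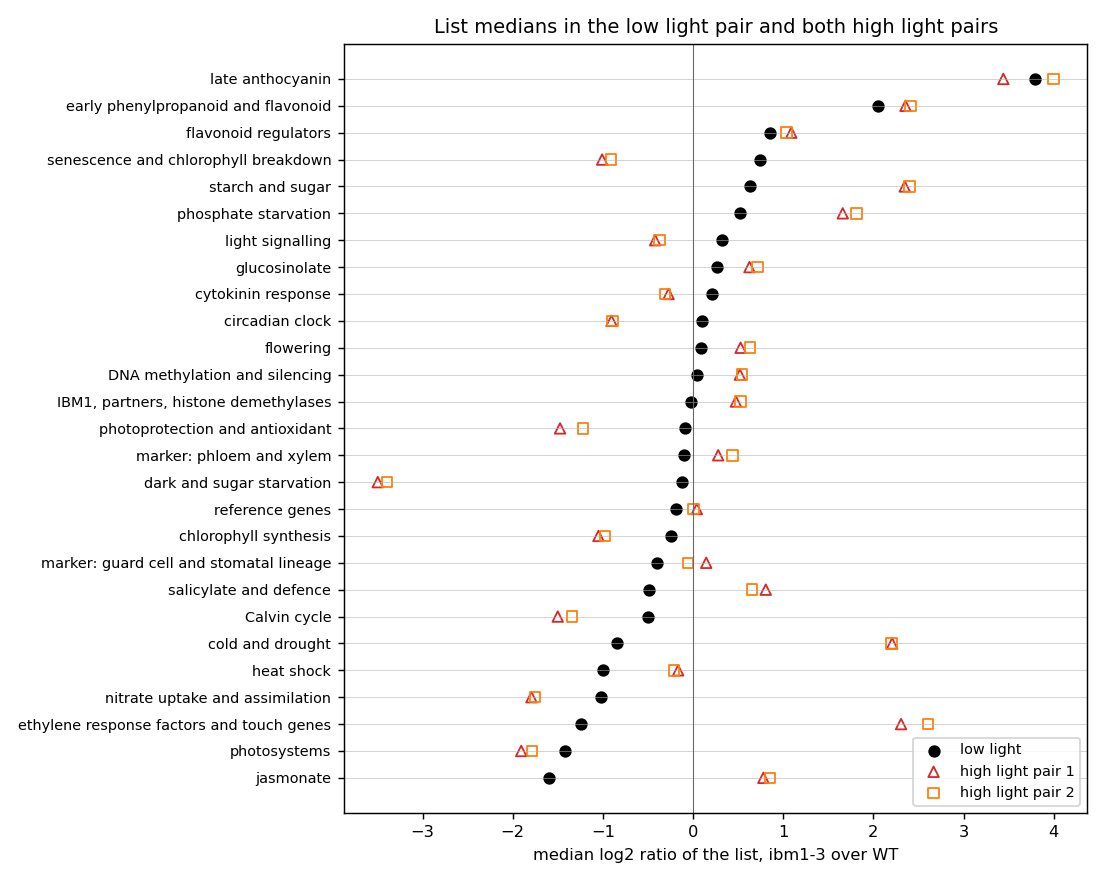
Median log2 ratio of ibm1-3 over WT (horizontal axis) of each gene list (rows) in low light (black circles, reads) and in the high light pairs 1 and 2 (triangles and squares, FPKM + 1). The late anthocyanin medians lie above 3 in all comparisons, the photosystem medians below -1, and the jasmonate median at -1.59 in low light against 0.78 and 0.85.

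The medians of many lists lay on the same side of 0 in all comparisons, and only some of these lists are given here. Late anthocyanin genes had medians of 3.80 in low light and 3.44 and 4.0 in the high light pairs, with 8 of 11 genes at least 2-fold higher in both pairs. UGT78D2 lay at 4.10 in low light but at 0.77 and 0.66 in high light, and BGLU10 at 1.25 but at -0.58 and -0.50. Early flavonoid genes had medians of 2.05, 2.36 and 2.41, with 10 at least 2-fold higher in both pairs, and photosystem genes -1.42, -1.91 and -1.79, with 37 of 41 at least 2-fold lower in both. The Calvin cycle median was -0.50 in low light and -1.50 and -1.34 in high light. Nitrate genes lay at -1.03, -1.79 and -1.75, and starch genes at 0.63, 2.35 and 2.40.

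Jasmonate genes lay at -1.59 in low light and at 0.78 and 0.85 in the high light pairs, and AOC3 at -3.34, 4.24 and 4.44. The defensins did not share that pattern and were lower throughout, with a median of 4 genes of -5.16 in pair 1 and -4.83 in pair 2. Ethylene response and touch genes lay at -1.24, 2.31 and 2.60, with XTH22 at -3.57, 4.05 and 4.23. Cold and drought genes lay at -0.84, 2.21 and 2.20, with CYP707A3 at -3.34, 5.67 and 5.89. Senescence genes went the other way, at 0.75, -1.01 and -0.91, with NAC092 at 1.17, -2.80 and -2.63, and MYBL2 lay at 1.35, -4.10 and -3.96. ER lay at -2.56, 0.61 and 0.82, but its high light values were near the minimum level. They were 0.53 FPKM in WT and 1.33 in ibm1-3 in pair 1, and 0.87 and 2.29 in pair 2.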

How the data were processed

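Rosette leaf RNA of 6 samples was sequenced, and the 2 low light samples, 1 per genotype, were compared. The low light values are a signal per gene, headed as read counts by the authors per the file headers but multiplied by 1 factor per library. All values above 0 were whole multiples of 1 step per library (100%, tolerance 0.01 steps), which gave reads back, and genes under 15 reads are listed at 0. The deposited log2 ratio equals the ratio of these 2 columns within 5e-05. High light pair 1 was deposited by the authors as estimated counts and FPKM, per the file headers. Pair 2 holds values that behave as FPKM, though the authors headed them expression. Per the submitters' processing notes, Bowtie2 and TAIR10 were used. The sources used here do not give the counting program, its strand setting or the RNA selection, so overlapping genes are uncertain. The labels name Illumina and BGI protocols without saying which sample had which, and their treatment text gives high light for all samples, while the low light label and age of 40 days are per sample.

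Reads were scaled by TMM (edgeR 4.0.16, R 4.3.3; factors 0.913 for WT and 1.095 for ibm1-3), a prior count of 1 was added, and genes with 50 or more reads over both libraries were kept. For medians and counts a gene listed at 0 in 1 library was set at 14 reads. Intervals are exact Clopper-Pearson (scipy 1.17.1). The ratio and its interval were tested on simulated reads with counting error alone and given library sizes. That test did not cover the listing at 0, the setting at 14 reads, the TMM estimate or differences between plants. No column belonged to an unmapped sample. Named genes were IBM1, the 12 highest and 12 lowest ratios among genes with 100 reads or more, the most abundant and most changed levels, those listed at 0 in 1 library and up to 4 members per list by size of ratio; other list members, the branches within a list and family members were named after their values were seen. The members and lists were chosen with earlier results of these data known. Sequences are from RefSeq, build TAIR10.1; 32835 identifiers matched. High light ratios are log2(FPKM + 1) for genes at 1 FPKM or more in a library of each pair.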

Additional observations from a re-analysis of the deposited data

Results flagged for a closer look

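Several gene lists and genes lay on one side of 0 in low light and on the opposite side in both high light pairs; the difference was not tested, each comparison has 1 library per genotype, and light, plant age, library protocol and table processing cannot be told apart. Among the lists, the median log2 ratio of the genes reported as affected by IBM1 was -0.8151 in low light and 0.53 and 0.56 in high light pairs 1 and 2, where 3 of them had values. Of the 3, ER and DCL3 were near the minimum level, at 0.53 to 0.87 FPKM in WT of both high light pairs. Jasmonate genes were at -1.594 against 0.78 and 0.85, cold and drought genes at -0.8419 against 2.21 and 2.20, and ethylene response and touch genes at -1.238 against 2.31 and 2.60. Senescence genes had the reverse order, at 0.7476 against -1.01 and -0.91.

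Families of the cell surface and wall showed the same kind of contrast. Expansins, which loosen walls, were at -0.7016 against 1.52 and 1.48. Arabinogalactan proteins were at -0.7843 against 1.07 and 1.21, lipid transfer proteins at -0.6647 against 0.60 and 0.89, and class III peroxidases at -0.7128 against 0.68 and 1.05. The epidermis and trichome markers were at -0.7421 against 0.87 and 1.01. In signalling families, cysteine-rich receptor-like kinases were at -0.7444 against 0.79 and 0.92, calmodulin-like proteins at -0.7588 against 1.68 and 1.54, and ERF and DREB factors at -0.7263 against 0.74 and 0.73.

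Of the 12 genes with the lowest ratios in low light, 5 lay above 0 in both high light pairs. The MATE efflux gene AT1G11670 was at -5.107 against 3.31 and 3.66, and AT3G10720 at -4.86 against 2.42 and 2.90. KCS1 was at -4.717 against 1.58 and 1.85, PRP4 at -4.479 against 2.19 and 2.27, and AT2G25460 at -4.199 against 2.22 and 2.54.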

How the results depend on the processing

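With library totals, 1582 genes were at least 2-fold higher where TMM gave 937, and list medians moved by 0.25 to 0.26. With at least 200 reads over both libraries 546 genes were higher, since fewer genes were counted, and 22 list medians moved by more than 0.1, such as that of xyloglucan endotransglucosylases from -0.54 to -1.78, with 6 genes left. The count of lower genes stayed within 1.5 times of 1608 under all 8 alternatives, from 1149 to 1751. Of the 162 measured ratios of named genes, none past 2-fold changed sign under any alternative; 81 moved out of their counting interval with library totals and 12 with a prior count of 5, and 11 ratios near 0, such as RCA and CAT3, changed sign with library totals. Medians near 0 changed sign too, among them chlorophyll synthesis (0.01) and dark and sugar starvation (0.14) with library totals and DNA methylation (-0.10) and flowering (-0.06) without a read minimum. No paired analysis was possible because the low light comparison comes from no test, with 1 library per genotype, and for the same reason no library could be left out. Depth limits genes under 50 reads. A measured gene listed at 0 in 1 library has only a bound for its ratio, which enters the medians and counts. Genes listed at 0 in both libraries have no ratio.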

Other observations

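Gene families taken by annotated name are set beside the share of all genes, 5.68% higher and 9.74% lower; they share members with the lists above, such as ERF6, XTH22, UGT78D2 and GSTF12. Of 63 measured ERF and DREB factors 24 were at least 2-fold lower and 1 higher, with a median log2 ratio of -0.73. Under library totals 19 were lower and 7 higher. Genes listed at 0 in 1 library were measured only through reads in the other, and without them 18 of 57 were lower, with a median of -0.57. Of 33 cysteine-rich receptor-like kinases, immune-related surface kinases, 14 were lower and none higher. Leaving out genes listed at 0, 13 of 32 were lower. NB-LRR immune receptors had 26 of 104 lower and 7 higher, with a median of -0.47, and under library totals 15 lower, 9 higher and -0.21. Among them AT4G19520 had 5761 reads in WT and 834 in ibm1-3 (-2.81) and WRR4 had 4672 and 1264 (-1.91). Arabinogalactan proteins had 13 of 30 lower and none higher, and 11 of 28 lower with genes listed at 0 left out. Xyloglucan endotransglucosylases, which cut and rejoin wall polymers, had 7 of 17 lower and 3 higher, with a median of -0.54. With at least 200 reads 3 of 6 were lower and 1 higher. Once genes listed at 0 were left out, 5 of 15 were lower and 3 higher, with a median of -0.21. XTH9 had 456 reads in WT and 66 in ibm1-3 (-2.80), and the expansin EXPA5 had 306 and 19 (-3.97). More genes were higher than lower among the sugar-transferring UGT enzymes, with 12 of 39 higher and 3 lower (7 of 29 higher with at least 200 reads), the NAC factors, with 9 of 33 higher and 3 lower (4 of 26), and the pentatricopeptide repeat proteins, which process organelle RNA, with 19 of 187 higher, 1 lower and a median of 0.40; under library totals 40 were higher, and with at least 200 reads 7 of 75. Among all genes, 12% were higher and 13.0% lower in the class with the fewest reads, up to 200 over both libraries. With at least 200 reads, 546 of 13270 genes were higher and 1185 lower. Only 75 of the 187 pentatricopeptide genes had at least 200 reads, and 10.2% of the 187 were higher. That share is thus not above the 12% of genes with the fewest reads. Glutathione S-transferases had 9 of 35 higher, 14 under library totals, and 9 lower. GSTF2 had 34761 and 13371 reads (-1.40). Without genes listed at 0, glutathione S-transferases had 7 of 33 higher and NAC factors 8 of 32.

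Neighbouring genes past 2-fold in the same direction formed 43 lower runs of at least 3 adjacent measured genes, with 139 genes in all, and 7 higher runs with 25 genes. The 4 indole glucosinolate methyltransferases in a row on chromosome 1 were lower, with IGMT4 at 26078 reads in WT and 6833 in ibm1-3 (-1.96) and IGMT1 at 4873 and 1433 (-1.79); as close copies their shares are uncertain. The 5 genes from GILP to JAZ10 on chromosome 5 were lower, with GILP at 7662 and 1784 reads (-2.13). A higher run of 4 on chromosome 4 held AZI1, at 42 and 97 (1.16), and EARLI1, at 155 and 399 (1.33). Another on chromosome 1 held the aliphatic glucosinolate oxygenase FMO GS-OX3, at 826 and 2287 (1.44). No share expected by chance was computed for these runs.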
